A study of Mus musculus with 4 samples.

Results

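Accessible regions at a short distance from a transcription start site can hold regulatory DNA that is neither the core promoter nor a remote enhancer. In ATAC-seq, adapters are placed by the Tn5 transposase where DNA is exposed, so that the number of reads over a region rises with its accessibility. The promoter-flanking peaks described here were the autosomal peaks that the peak caller had assigned to both oxygen conditions and whose nearest protein-coding start in GENCODE M21 lay more than 1 kb and at most 5 kb away, measured from the nearest peak edge. They numbered 9579 of the 128055 peaks in the table, or of the 116593 shared autosomal peaks, and their distances, not their values, chose them. Of these, 4774 lay upstream of the start and 4805 downstream, which is the side of the gene body. A peak was given to a gene by distance alone.

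The cells were mesenchymal stem cells (MSCs) from the bones of wild-type C57BL/6N male mice of 3 to 5 months, which the labels call bone-marrow MSCs and which were sorted on day 12 of culture as CD45-, TER-119-, CD140a+ and Sca-1+ cells. No genotype was altered in any group. The study divided the sorted cells into 2 groups. One stayed in hypoxia (2% O2) and the other was moved to normoxia (21% O2), with 2 libraries in each group. The study let the cells adapt for days after the move, and so read long-term effects rather than an acute response. Its methods place the sorting on day 12, and its first figure legend on an earlier day. The study describes the libraries as independent experiments. The labels do not say whether libraries of the same number came from the same sorted cells. The comparison asks whether oxygen level alters accessibility in these flanks, and whether the flanks follow the promoters beside them. Bone holds low oxygen, and cells sense oxygen through HIF transcription factors, which bind the letters ACGTG, and through enzymes that need oxygen to remove chromatin marks.

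The values are reads per 10000000 reads of a library, with no division by peak width, so wide peaks have high values. Library totals ran from 26680936 to 29965523 reads. Shared autosomal peaks held 48.1% and 51.9% of the reads of the hypoxia libraries and 30.5% and 34.6% of those of the normoxia libraries. In such bulk libraries, a region open in fewer cells cannot be told apart from one less open in each cell. This difference in reads within peaks touches every value as deposited, and its part in the results was not tested. As a check of the cell type, all 10 genes of an MSC marker list had a peak within 1 kb of a start, with summed values of 1698 and 1768 in hypoxia and 951 and 1078 in normoxia. Of 10 blood cell markers 5 had such a peak (summed values of 206 to 217 in hypoxia and 144 to 162 in normoxia), and Ptprc, Cd3e, Itgam and Cd79a were among those with none. Of 8 endothelial markers 4 had one (164 to 168 and 101 to 123), and Cdh5, Emcn, Tie1 and Sox17 had none. The part of other cell types in the results was not tested beyond these values.

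To show what such peaks look like, the central 300 bases (mm10, plus strand) of 4 flanking peaks are printed, 1 for each side and direction, those of Klf9 and Sirpa lower in normoxia and those of Rflna and Tmem267 higher. They had the lowest p of their side and direction, except that Sirpa was second to Ino80c, whose sequence is not printed. Capitals mark the letters of searched motifs on either strand.

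Klf9, upstream, chr19:23135401-23135700: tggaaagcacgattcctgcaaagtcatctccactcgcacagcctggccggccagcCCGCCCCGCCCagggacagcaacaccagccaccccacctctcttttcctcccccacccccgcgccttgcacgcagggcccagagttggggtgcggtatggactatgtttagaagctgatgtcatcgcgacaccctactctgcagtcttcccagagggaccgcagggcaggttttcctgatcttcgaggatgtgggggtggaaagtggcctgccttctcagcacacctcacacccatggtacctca

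Rflna, upstream, chr5:124999951-125000250: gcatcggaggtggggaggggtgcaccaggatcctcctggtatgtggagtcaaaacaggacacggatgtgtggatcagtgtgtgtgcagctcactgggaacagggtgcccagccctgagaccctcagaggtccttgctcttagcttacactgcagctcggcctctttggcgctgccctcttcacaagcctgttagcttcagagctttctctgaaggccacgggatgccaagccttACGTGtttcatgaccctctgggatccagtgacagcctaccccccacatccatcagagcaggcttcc

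Sirpa, downstream, chr2:129600601-129600900: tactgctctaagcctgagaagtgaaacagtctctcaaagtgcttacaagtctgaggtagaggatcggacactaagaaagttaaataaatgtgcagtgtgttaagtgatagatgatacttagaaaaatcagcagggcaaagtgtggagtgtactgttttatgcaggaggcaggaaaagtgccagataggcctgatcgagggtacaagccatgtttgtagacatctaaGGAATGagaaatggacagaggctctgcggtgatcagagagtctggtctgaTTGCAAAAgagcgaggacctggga

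Tmem267, downstream, chr13:119613201-119613500: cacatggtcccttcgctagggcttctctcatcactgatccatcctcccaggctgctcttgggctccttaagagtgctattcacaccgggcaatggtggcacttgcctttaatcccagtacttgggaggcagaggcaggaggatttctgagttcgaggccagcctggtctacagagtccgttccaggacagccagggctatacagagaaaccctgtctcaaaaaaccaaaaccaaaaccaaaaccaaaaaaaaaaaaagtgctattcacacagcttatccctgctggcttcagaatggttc

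The window near Klf9 held a pair of overlapping GC boxes (GGGCGG) and 13 CpG dinucleotides at a GC content of 61.3%. The one near Rflna held the hypoxia response element core (ACGTG), and the one near Sirpa held a TEAD motif (GGAATG) and a C/EBP motif (TTGCNNAA). None of the 12 motifs searched was found in the window near Tmem267. None of these 4 windows held an AP-1 motif (TGANTCA), which the windows of Ino80c and of the peaks upstream of Atf3 and Sparc did. The stretches of Atf3 and Sparc are printed with up to 20 bases on each side and the motif in capitals, since peaks with and without this motif are compared further on.

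Atf3, upstream, chr1:191224423-191224469: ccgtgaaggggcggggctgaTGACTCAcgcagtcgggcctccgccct

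Sparc, upstream, chr11:55428401-55428427: TGATTCAgacattttttcagtgtgaaa

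By annotation, 4564 flanking peaks lay in introns, 3118 in intergenic sequence and 1897 over an exon. Upstream peaks were mostly intergenic (59.0%), whereas downstream peaks were intronic in 64.2% and exonic in 29.5% of cases. They belonged to 6857 genes, of which 1345 had flanking peaks on both sides, and to 8374 start sites, of which 7278 had 1 such peak. Upstream of Plekha7, which encodes a protein of adherens junctions, 7 flanking peaks were found at 5 start sites, and 6 were found upstream of Foxp1, a forkhead transcription factor. Downstream, Ank3, Lhfpl2 and Trak1 had 5 each. No flanking peak on these sides of these genes was called in either direction.

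Flanking peaks were weak beside promoter peaks. Their median mean value over the 4 libraries was 13.3, against 70.4 for the 15967 peaks within 1 kb of a start and 13.8 for the 91047 distal peaks over 5 kb away. Values ran from 0.0937 to 484 in flanking peaks, and 339 of them had fewer than 10 reads in every library. The median width was 1000 bp, with a range from 100 to 39700 bp. Near the limits of the definition the values changed little, since the median mean value was 12.3 at 500 to 1000 bp from the start, 11.3 at 1000 to 1500 bp, 13.9 at 4500 to 5000 bp and 13.4 at 5000 to 5500 bp.

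In base composition, flanking peaks lay close to distal peaks. Their median GC content was 46.8%, compared with 45.0% in distal and 52.1% in promoter peaks weighted to the same mean values, and the observed over expected CpG ratio was 0.199, 0.195 and 0.372 in the same order. The GC box was found in the central window of 7.29% of flanking peaks, in 5.14% of distal and in 28.5% of promoter windows. The AP-1 motif followed the reverse order, with 21.1%, 23.7% and 10.8%. The ACGTG core was found in 14.1% of flanking, 14.1% of distal and 17.5% of promoter windows. A motif of CTCF, the factor that anchors chromatin loops, was found in 4.29% of upstream and 2.87% of downstream flanking windows. The corresponding shares were 2.58% in distal and 4.07% in promoter windows. These shares describe letters in windows of equal length and were not tested.

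Around start sites, shared peaks of any kind covered more sequence downstream than upstream. From 1 to 2 kb they covered 25.1% of the downstream and 17.0% of the upstream sequence nearest to that start, and from 4 to 5 kb 11.5% and 9.0%. The flanking peaks alone covered 1.51% downstream and 1.73% upstream from 1 to 2 kb, and 7.60% and 7.40% from 4 to 5 kb. Thus the surplus near the downstream side belonged to peaks whose edge reached to within 1 kb of a start, which the definition places among the promoter peaks.

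In every distance class, both normoxia libraries had lower median values than both hypoxia libraries. Over all flanking peaks, the median value as deposited was 14.2 and 14.96 for hypoxia against 11.6 and 12.3 for normoxia, and the groups did not overlap. Medians of log2(value + 1) were 3.92 and 4.00 in hypoxia against 3.66 and 3.74 in normoxia, a difference of -0.26 (pooled SD 0.06, n = 2 and 2, two-sided p = 0.333 by an exact permutation test, which cannot go lower with 2 against 2 libraries). At 1 to 2 kb upstream the medians were 12.7 and 13.6 for hypoxia against 10.9 and 11.3 for normoxia. At 4 to 5 kb downstream they were 15.2 and 15.98 against 12.4 and 13.0.

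**Figure D1:**
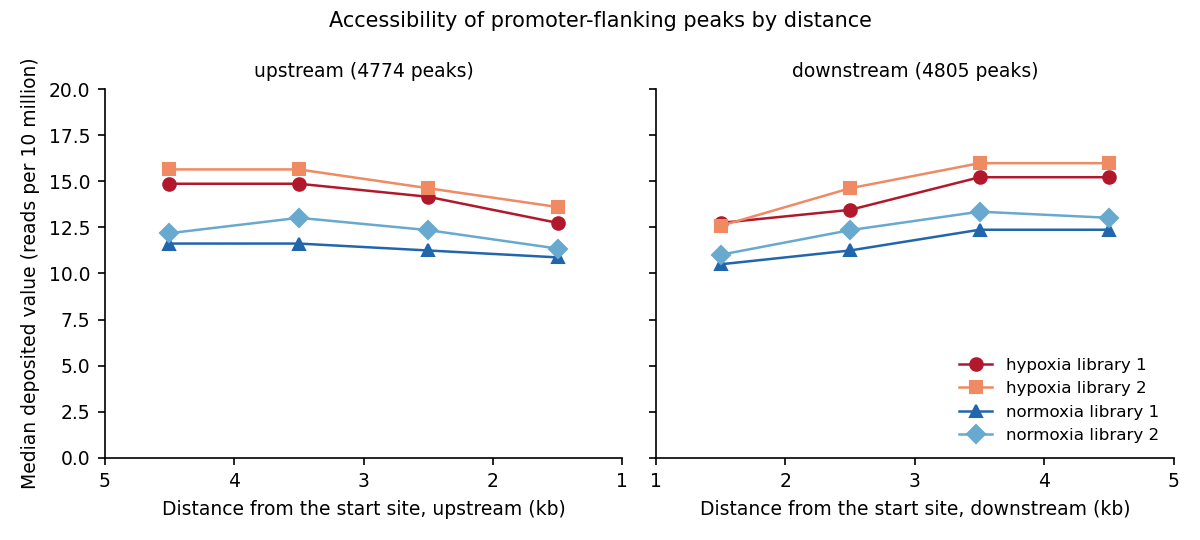
Median deposited value (reads per 10000000) of flanking peaks in each of the 4 libraries, by distance from the start site in kb, upstream on the left and downstream on the right. In each of the 8 distance classes both hypoxia libraries (red, orange) lie above both normoxia libraries (blues), and values are lowest at 1 to 2 kb.

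The direction of that median depended on the scaling. Scaled by RLE size factors, which make the typical peak of the table equal between libraries, the difference of medians was 0.18, higher in normoxia, and at equal totals over peaks it was 0.45. Relative to the other shared autosomal peaks, flanking peaks therefore kept more of their reads. They held 5.55% and 5.51% of the reads in these peaks in hypoxia and 6.02% and 5.86% in normoxia (exact permutation test, two-sided p = 0.333, n = 2 and 2). Promoter peaks went the other way, from 39.3% and 38.1% to 33.8% and 34.8%, and distal peaks rose from 55.1% and 56.4% to 60.2% and 59.3%, with no overlap between groups in either case.

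Single peaks were called with limma on log2(value + 1) after RLE scaling at a false discovery rate (FDR) under 0.01 over all 128055 peaks, with closing for lower and opening for higher in normoxia. Of the flanking peaks 195 (2.04%) were closing, less than the 4.57% of all peaks, and 157 (1.64%) were opening, near the 1.77% of all peaks. Log2 changes below are normoxia over hypoxia on this scaled log2(value + 1) scale, which understates changes of weak peaks. After scaling, the pair of normoxia libraries was below the pair of hypoxia libraries in 20.8% of flanking peaks (29.6% of all peaks) and above them in 32.0% (27.4% of all peaks). On values as deposited these shares were 53.8% (59.5% of all peaks) and 7.70% (6.94% of all peaks).

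The calls rested on the scaling and on both hypoxia libraries. On values as deposited limma called 1540 flanking peaks closing (16.1%) and 26 opening (0.271%), beside 24.0% and 0.391% of all peaks. After cyclic loess it called 67 (0.699%) and 107 (1.12%), beside 1.31% and 1.42%. With either hypoxia library left out, that group held a lone library, whose spread cannot be estimated. The median difference of flanking peaks as deposited was then -0.30 without hypoxia replicate 1 and -0.22 without hypoxia replicate 2. All 195 closing and all 157 opening peaks were also called in the same direction by edgeR on the recovered reads. That fit called 259 (2.70%) and 215 (2.24%) flanking peaks, beside 5.7% and 2.54% of all peaks. Of the 195 and 157 peaks, 58 and 69 were also called after cyclic loess.

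Closing and opening flanking peaks differed in strength. Closing peaks had a median mean value of 81.2 and a median width of 2100 bp, and opening peaks a median mean value of 14.9 and a median width of 1100 bp. Median log2 changes were -0.65 for closing and 1.13 for opening ones, with more than a 2-fold change in 16 of the former and 100 of the latter. The TEAD motif was in the central window of 13.8% of closing, 33.8% of opening and 21.3% of all flanking peaks. The GC box was in 14.9%, 3.18% and 7.29%, and the AP-1 motif in 24.6%, 13.4% and 21.1%. Because the groups differ in width and strength, these shares are a description only. After the RLE scaling used for the calls, the median log2 change was 0.18 in the weakest and -0.14 in the strongest quintile of mean value. The part of this trend in the strength of closing and opening peaks was not tested.

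On values as deposited, the fall in normoxia was larger in the stronger quintiles of each class of peak, with little difference between the weakest ones. In flanking peaks divided into quintiles of mean value, the median log2 ratio as deposited was -0.18 in the weakest quintile, -0.18, -0.26 and -0.40 in the next ones and -0.61 in the strongest. Distal peaks in the same ranges of mean value had -0.19, -0.17, -0.27, -0.40 and -0.61. After RLE scaling the medians of flanking peaks were 0.18, 0.24, 0.18, 0.06 and -0.14, so that the sign turned in the strongest quintile alone. As deposited, promoter peaks had -0.23, -0.25, -0.31 and -0.48 in the first 4 ranges. In the strongest range the promoter value of -0.79 came from peaks with a median mean value of 99.5, against 56.1 in flanking peaks, so these are not of equal strength. Flanking peaks thus lay within 0.012 of distal peaks in each quintile, and promoter peaks lay 0.050 to 0.080 below flanking peaks in the first 4.

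**Figure D2:**
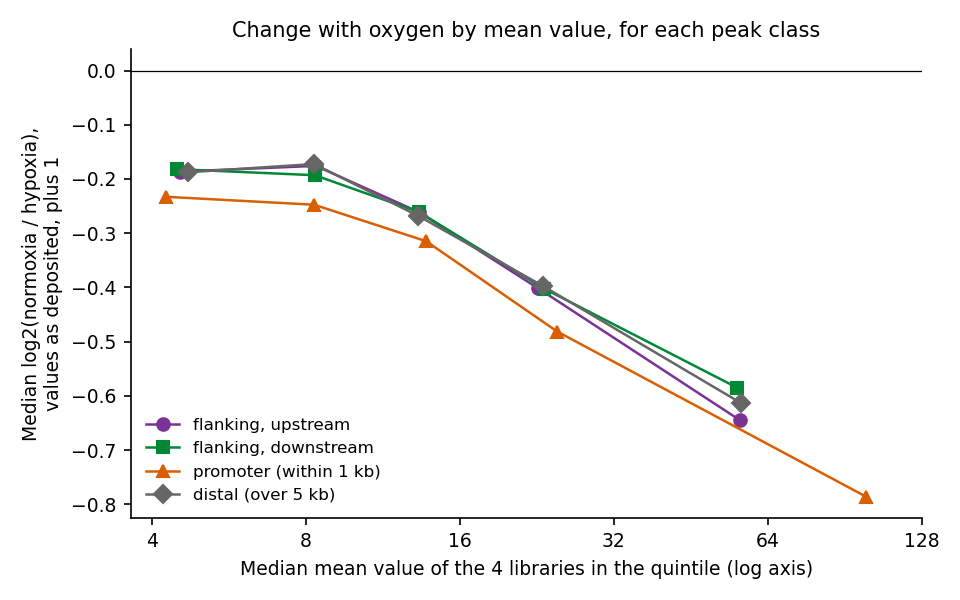
Median log2 ratio of normoxia over hypoxia, values as deposited plus 1, against the median mean value of the 4 libraries (log axis) in 5 ranges of mean value, for upstream and downstream flanking, promoter and distal peaks. Upstream, downstream and distal lines run together from -0.18 to near -0.61, and the promoter line lies below them in the first 4 ranges.

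Compared at equal mean value library by library, the groups overlapped for flanking minus distal peaks. The weighted median of flanking minus that of distal peaks was 0.03 and 0 for hypoxia against 0 and -0.04 for normoxia (difference -0.03, pooled SD 0.02, exact permutation test, two-sided p = 0.667, n = 2 and 2). When each peak was first set against its own mean over the 4 libraries, the difference was -0.01 (pooled SD 0.03, exact permutation p = 1). For flanking minus promoter peaks the same measure was -0.07 and 0.0026 for hypoxia against 0.05 and 0.02 for normoxia, which differ by 0.07 (pooled SD 0.04, exact permutation test, two-sided p = 0.333, n = 2 and 2) in which both normoxia libraries were higher. The unadjusted medians gave 0.04 for it (pooled SD 0.05, exact permutation p = 0.667), and -0.01 without hypoxia replicate 1, so its direction rests on that library. At equal mean value, 2.55% of promoter and 2.12% of distal peaks were closing beside 2.04% of flanking peaks, and 0.794% and 2.15% were opening beside 1.64%.

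Flanking peaks were also set against the promoter peak of the same start site, which 6428 of them had. The paired median of flank minus promoter was -2.14 and -2.10 on the log2(value + 1) scale in hypoxia and -1.72 and -1.81 in normoxia. The gap was narrower by 0.35 in normoxia, with no overlap between groups (pooled SD 0.05, exact permutation test, two-sided p = 0.333, n = 2 and 2). The median log2 ratio as deposited was -0.35 in the flanks and -0.73 in their promoters, and in 73.7% of pairs the flank fell less or rose more. The members of a pair differed in strength, with a median mean value of 70.0 in the promoters and 13.6 in the flanks. Among the 1481 pairs whose mean values lay within 2-fold, the ratios were -0.43 in the flanks and -0.58 in the promoters. For these pairs each peak was set against its own mean over the 4 libraries before the promoter was subtracted from the flank. The hypoxia libraries then had medians of -0.10 and -0.03, whereas the normoxia libraries had 0.07 and 0.04. The difference was 0.12 (pooled SD 0.04, exact permutation p = 0.333). These medians describe the change between oxygen levels, not which member of a pair was stronger. Flank and promoter changes went together only weakly across the 6428 pairs (Spearman's rho 0.16, Pearson's r 0.16, given as a description because the pairs share their libraries). Weak flanks with few reads are included in these coefficients, and the part of counting error in them was not tested. Of all 6428 pairs 1223 had a closing promoter, and of the 142 pairs with a closing flank 43 did. Of the 77 pairs with an opening flank 5 had a closing promoter. No closing flank lay beside any of the 23 opening promoters in these pairs.

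**Figure D3:**
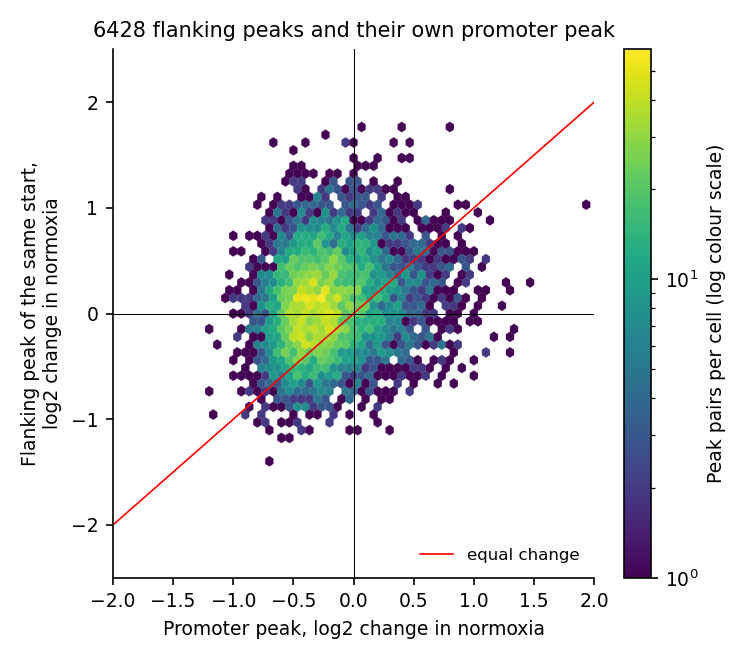
Log2 change in normoxia (RLE scaled) of the promoter peak on the x axis and of the flanking peak of the same start on the y axis, with colour for the number of pairs per cell on a log scale and a red line of equal change. The cloud of 6428 pairs lies mostly above the line, with a median of -0.26 on the x axis and 0.08 on the y axis.

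Differences in change between upstream and downstream flanks were small. Their medians as deposited were 14.2 and 14.96 upstream and 14.5 and 14.96 downstream in hypoxia, and 11.2 and 12.3 upstream and 11.6 and 12.7 downstream in normoxia. At equal mean value the difference between sides changed by -0.02 between oxygen levels (pooled SD 0.02, exact permutation test, two-sided p = 1, n = 2 and 2). At the 605 start sites with flanking peaks on both sides it changed by 0.02 (pooled SD 0.07, exact permutation p = 1). Set against each peak's own mean, these differences were -0.02 (pooled SD 0.0039) and 0.05 (pooled SD 0.02), of opposite sign and each with no overlap between groups (exact permutation p = 0.333 for both). In the strongest quintile the median log2 ratio as deposited was -0.64 upstream and -0.59 downstream. Set against each peak's own mean, the library medians of upstream minus downstream in that quintile were 0.01 and 0.04 for hypoxia against -0.03 and -0.01 for normoxia, which differ by -0.04 (pooled SD 0.02, exact permutation p = 0.333).

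There were 111 closing (2.33%) and 77 opening (1.61%) peaks upstream and 84 (1.75%) and 80 (1.66%) downstream. The larger closing count upstream turned around when 1 start per gene was used, with 92 upstream and 103 downstream, or when distance was taken from the peak centre, with 172 and 406. By its construction the latter admits wide peaks whose edge lies within 1 kb of a start. Among downstream flanks, exonic peaks had a higher median mean value than intronic peaks (18.6 against 11.8), and 2.75% of the exonic and 1.33% of the intronic ones were closing. Along the distance, the upstream closing share was 1.58% at 1 to 2 kb, 2.46% at 2 to 3 kb, 2.21% at 3 to 4 kb and 2.99% at 4 to 5 kb, and the downstream share was 2.27%, 1.25%, 1.78% and 1.79%.

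Flanking peaks with and without an AP-1 motif, the binding letters of FOS and JUN dimers, differed in the same direction on both sides on values as deposited. The 2017 peaks with the motif had a median log2 ratio as deposited of -0.41 and the other 7562 one of -0.33. The ratios were -0.42 and -0.33 upstream and -0.40 and -0.32 downstream. At equal mean value, the median of peaks with minus those without the motif was 0.04 and 0.10 for hypoxia against -0.05 and 0 for normoxia, which differ by -0.09 (pooled SD 0.04, exact permutation test, two-sided p = 0.333, n = 2 and 2). The groups did not overlap, and the difference was -0.07 in the strongest quintile, set against each peak's own mean. Peaks with the motif were narrower, with a median of 900 bp against 1100 bp, and the difference was -0.05 without weighting and -0.0059 at equal mean value per kb of width, where almost none of it was left. Of the peaks with the motif 2.38% were closing and 1.04% opening, and of those without 1.94% and 1.80%.

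A further 1051 autosomal peaks at 1 to 5 kb had been assigned to hypoxia only and 1 to normoxia only, and these are not among the flanking peaks. Of the flanking peaks 1175 touched a hypoxia-only peak with no gap, so that the caller had cut 1 accessible region into stretches of different assignment. Their median log2 ratio as deposited was -0.57, 6.38% were closing and 0.255% opening. In contrast, the 7120 flanking peaks with no other peak within 1 kb had a ratio of -0.32, with 1.49% closing and 1.92% opening. The 1256 whose nearest peak within 1 kb was a shared one had -0.28, with 1.11% and 1.35%. The assignment of the neighbour was made on the same 4 libraries, so these values are a description and carry no test.

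Among upstream closing peaks, the one of Klf9, a Krüppel-like transcription factor, had the lowest p. This peak (chr19:23133501-23137600, 4100 bp, 3626 bp upstream, with a noncoding start inside it) had values of 275 and 271 in hypoxia and 93.7 and 116 in normoxia. Its log2 change was -0.90 (SE 0.11, limma adjusted p = 4.3e-06). The promoter peak of Klf9 fell by less, from a mean of 835 to 471 (log2 change -0.35, limma adjusted p = 0.0039). Upstream of Atg101, a subunit of the complex that starts autophagy, the values were 90.9 and 97.6 for hypoxia against 30.4 and 30.4 for normoxia (log2 change -1.13, SE 0.15, limma adjusted p = 1.1e-05). Its promoter peak showed a log2 change of 0.04 (limma adjusted p = 0.88). Upstream of Nanog, the pluripotency homeobox gene, with no shared promoter peak of its own at that start, the values were 158 and 164 against 57.3 and 66.4, and upstream of Mettl2, a tRNA methyltransferase, 114 and 128 against 37.9 and 50.1. In each of these 4 the normoxia values were well below the hypoxia values. The choice of the peaks with the lowest p required groups that do not overlap after RLE scaling.

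Upstream opening peaks were weaker. The peak of Rflna, which encodes a filamin-binding protein, had values of 13.1 and 8.50 in hypoxia and 25.1 and 24.7 in normoxia (37 and 25 reads against 67 and 74). Its log2 change was 1.61 (SE 0.25, limma adjusted p = 6.7e-05), whereas its promoter peak had 0.44 (limma adjusted p = 0.037). The peak of Calcoco2, a receptor for selective autophagy, had 8.14 and 8.84 against 17.6 and 22.7, and that of Chst9, a sulfotransferase, 8.49 and 9.52 against 17.2 and 25.0. Upstream of Rsad2, the interferon-induced antiviral protein viperin, the values were 29.7 and 34.7 against 38.6 and 56.4. Values as deposited were thus higher in both normoxia libraries in all 4 peaks, and that of Rsad2 was not called without scaling.

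Downstream, the closing peak with the lowest p lay in Ino80c, a subunit of the INO80 chromatin remodeller, with 145 and 147 in hypoxia and 51.0 and 53.1 in normoxia. Its log2 change was -1.0 (SE 0.13, limma adjusted p = 8.1e-06) and that of its promoter peak -0.80 (limma adjusted p = 0.00019). In an intron of Sirpa, the receptor of CD47, the values were 237 and 236 against 73.8 and 105 (chr2:129598001-129603500, 4388 bp downstream). Both the flank, at -0.94 (limma adjusted p = 1.0e-05), and the promoter, at -0.76 (limma adjusted p = 6.7e-05), were closing. In Nectin4, a cell adhesion molecule, the values were 186 and 221 against 75.3 and 92.8, and in Gga2, an adaptor of the trans-Golgi network, 213 and 241 against 77.2 and 113. The peaks of Atg101, Nanog, Ino80c, Sirpa and Nectin4 each touched a hypoxia-only peak, and those of Klf9, Mettl2 and Gga2 did not.

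Among downstream opening peaks the lowest p belonged to one of 9100 bp in Tmem267, with 217 and 178 in hypoxia and 359 and 308 in normoxia (log2 change 1.24, SE 0.12, limma adjusted p = 2.7e-08). A noncoding start lay inside this peak. The peak in Smc6, a subunit of the SMC5/6 genome stability complex, had 21.9 and 26.9 against 36.0 and 42.4. The peak in Fgf7, a growth factor for epithelial cells, was the widest flanking peak, with 39700 bp. It had 419 and 455 against 455 and 454 and so hardly differed as deposited (log2 ratio 0.06). Its opening call (log2 change 0.53, limma adjusted p = 0.00016) was not made on values as deposited, nor were those of Smc6 and Rbp3. In Rbp3, a retinoid-binding protein of the retina, the values were 18.8 and 15.3 against 26.6 and 29.7.

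**Figure D4:**
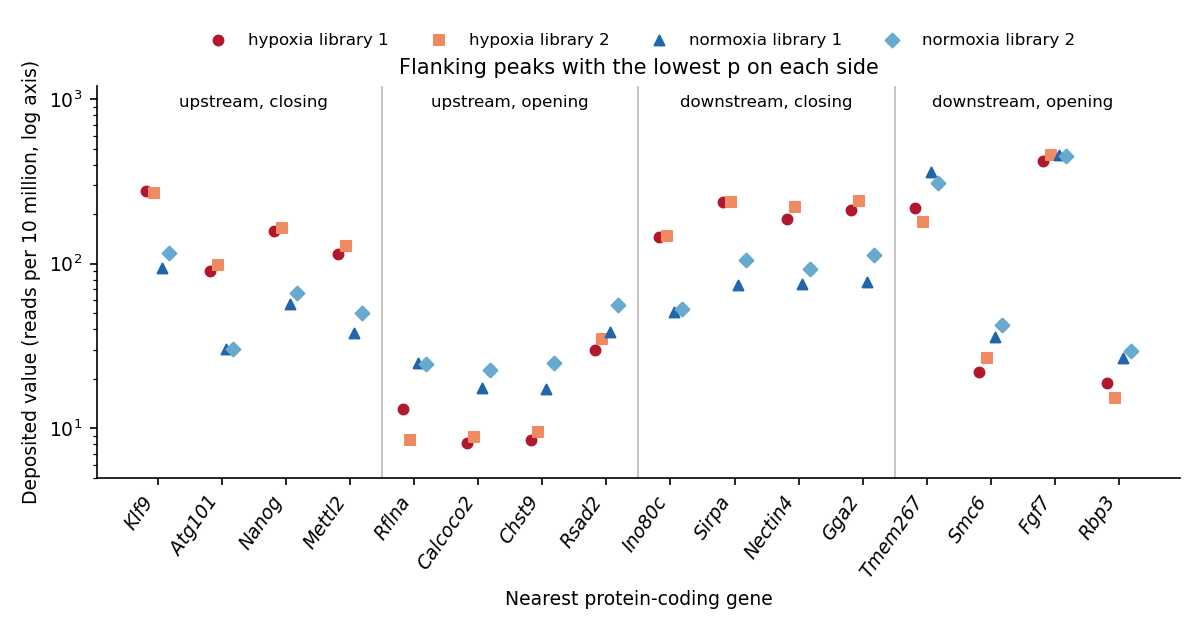
Deposited values (reads per 10000000, log axis) in each library of the 16 flanking peaks with the lowest p, 4 for each side and direction, labelled by the nearest protein-coding gene. Closing peaks lie at 30 to 275 and opening peaks reach down to 8.14, and in Fgf7 the 4 libraries nearly coincide.

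Over all gene lists, 7 of 89 flanking peaks were closing (7.87%), beside 2.04% of all flanking peaks and 4.57% of all peaks. Limma after RLE scaling and edgeR called none opening. The median mean value of the 89 was 19.1, against 13.3 in all flanking peaks, and closing calls were more frequent in strong peaks. The closing peaks at Postn, Comp, Bnip3 and Atf3 touched a hypoxia-only peak, and those at Lox and Acss1 did not. Of all flanking peaks that touched one, 6.38% were closing. The part of strength and of such neighbours in the share of the lists was not tested. After cyclic loess 2 of the 7 closing calls were kept, those at Comp and Acss1, and those at Postn, Bnip3, Atf3 and Lox were lost. Of 20 osteogenic genes 10 had flanking peaks, 19 in all, with 1 closing by limma (2 by edgeR) and a median log2 change of -0.01. The closing one lay upstream of Postn, the matrix protein periostin, with 115 and 134 in hypoxia and 61.1 and 61.4 in normoxia (log2 change -0.54, limma adjusted p = 0.0061). The strongest upstream one belonged to Sparc, the matrix protein osteonectin, with 225 and 261 against 115 and 145 and a limma adjusted p of 0.0101, just past the threshold. The strongest downstream one lay in Bmp4, a bone morphogenetic protein, with 77.8 and 83.0 against 60.7 and 53.7 (log2 change -0.01, limma adjusted p = 0.97). Over all flanking peaks the median log2 change was 0.09. Noncoding starts lay inside the peak of Bmp4 and inside those of Srebf1, Slc25a1 and Cdh5 described below.

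Of 15 adipogenic genes 7 had 11 flanking peaks, with a median of 0.13. Neither limma after RLE scaling nor edgeR called any of them. At an unadjusted limma p under 0.05 there were 2 lower and 4 higher. Of all 9579 flanking peaks 850 were lower and 1329 higher at that threshold, and of all 128055 peaks 37599 passed in either direction. The one upstream of Fabp4, the fatty acid carrier of adipocytes, had 75.4 and 74.8 in hypoxia and 33.7 and 42.7 in normoxia (limma adjusted p = 0.028), and the one in Srebf1, a regulator of lipid synthesis, had 80.3 and 61.2 against 64.5 and 62.7 (limma adjusted p = 0.15). Of 10 chondrogenic genes 4 had 5 flanking peaks, with 1 closing and a median of 0.07. At Comp, a cartilage matrix protein, the upstream flank was closing with 59.1 and 67.3 against 26.2 and 25.7 (log2 change -0.78, limma adjusted p = 0.0019). The downstream flank of the same gene had 167 and 154 against 124 and 139 (log2 change 0.19, limma adjusted p = 0.31). After cyclic loess this downstream flank was called opening. The difference between the flanks of Comp was not tested.

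Of 18 genes of the hypoxia response 10 had 11 flanking peaks, with 1 closing and a median log2 change of -0.29. The closing one lay in an intron of Bnip3, a mitophagy receptor and HIF target, with 195 and 229 in hypoxia and 91.1 and 124 in normoxia (log2 change -0.51, limma adjusted p = 0.0046), and its promoter peak was closing as well (log2 change -0.57, limma adjusted p = 0.0029). Upstream of Vegfa, the angiogenic growth factor, the values were 37.2 and 24.5 against 25.5 and 25.0, so that the groups overlapped. Of 12 genes of citrate and acetyl-CoA metabolism 5 had 5 flanking peaks, all downstream, with a median of -0.35. The closing one lay in Acss1, a mitochondrial acetyl-CoA synthetase, with 49.9 and 61.9 against 17.6 and 17.4 (log2 change -1.15, limma adjusted p = 0.00011). The one past the end of Slc25a1, the mitochondrial citrate carrier, had 133 and 125 against 70.8 and 72.8 (log2 change -0.37, limma adjusted p = 0.054).

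Of 17 AP-1 and immediate early genes 7 had 9 flanking peaks, with 2 closing and a median log2 change of -0.27. Both closing ones lay upstream of Atf3, a stress-induced bZIP factor. The peak that holds the AP-1 letters printed above, with a noncoding start inside it, had 125 and 118 in hypoxia and 52.8 and 57.4 in normoxia (log2 change -0.66, limma adjusted p = 0.0013). The other had 42.1 and 64.3 against 21.0 and 21.7 (log2 change -0.78, limma adjusted p = 0.0049). In Egr1, an immediate early zinc-finger factor, the downstream flank had 537 and 600 against 368 and 355 (log2 change -0.17, limma adjusted p = 0.20). Of 15 TGF-beta and matrix genes 5 had 13 flanking peaks, with 1 closing by limma (2 by edgeR) and a median of 0.10. The one closing by limma lay upstream of Lox, the collagen cross-linking enzyme lysyl oxidase, with 215 and 255 against 106 and 131 (log2 change -0.50, limma adjusted p = 0.0031). A downstream flank of Col3a1, touching a hypoxia-only peak, was closing by edgeR and after cyclic loess. Its values were 21.6 and 29.2 against 7.50 and 11.7 (log2 change -0.89, limma adjusted p = 0.015). In Smad3, a transducer of TGF-beta signals, the strongest downstream flank had 184 and 189 against 112 and 114 (log2 change -0.24, limma adjusted p = 0.16).

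Of the MSC markers 7 had 9 flanking peaks, with a median log2 change of -0.20. Limma after RLE scaling and edgeR called none of them, and 1 was lower at an unadjusted limma p under 0.05. The flank downstream in Cxcl12, the chemokine of marrow stroma, had 265 and 258 in hypoxia and 164 and 186 in normoxia (limma adjusted p = 0.55), while the one upstream of Pdgfrb, a stromal growth factor receptor, had 22.3 and 26.5 against 21.7 and 14.7. For the blood list, flanks were found at Cd79a, a B-cell receptor chain, with 52.0 and 58.1 against 55.1 and 44.4, and at Spi1, the myeloid factor PU.1, with 36.1 and 33.3 against 23.6 and 20.7. For the endothelial list, the strongest was upstream of Cdh5, VE-cadherin, with 28.7 and 31.6 against 33.0 and 27.0. Of 5 flanking peaks in the blood list and 3 in the endothelial list (medians of -0.03 and 0.40), limma after RLE scaling and edgeR called none. At an unadjusted limma p under 0.05, 1 and 2 were higher, beside 850 lower and 1329 higher of all 9579 flanking peaks. Lists this short cannot be told apart from that share.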

How the data were processed

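Chromatin accessibility was measured in 4 ATAC-seq libraries, 2 per oxygen level. According to the study's methods and the submitters' processing notes, the authors aligned reads to mm10 with Bowtie2, removed duplicates with Picard and called 1 peak set over all libraries with chromstaR (bins of 300 bp, steps of 100 bp). The authors deposited 1 signal per peak and library, which they call RPKM. In each library 100% of the deposited values were whole multiples of 1 step (within 0.01), so that they equal reads per 10000000 with no division by width. Whether a read stands for a fragment or a cut is not given in the sources used here. The library totals and reads were recovered from these steps, and intervals from them would cover counting error only.

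From the deposited signal, each peak was assigned to its nearest start among the protein-coding transcripts of GENCODE M21, which is on the same build. The members, gene lists and tests were chosen with earlier results of these data known. Peaks were tested with limma 3.58.1 in R 4.3.3 (trend and robust) on log2(value + 1) after RLE size factors (1.14 and 1.23 in hypoxia, 0.81 and 0.89 in normoxia), two-sided, with Benjamini-Hochberg adjustment over 128055 peaks at an FDR under 0.01. No filter on low values was applied. edgeR 4.0.16 was run on the recovered reads as an alternative. The limma fit was tested on simulated data. Library medians were compared by the exact permutation test over 4 libraries. Promoter and distal peaks were weighted to the mean values of the flanking peaks in 50 bins. Motifs were searched on both strands of the central 300 bases, which run past the edges of the 407 narrower members. The peaks named were, per side and direction, the 4 called with the lowest p and a mean value of 10 or more. The groups of these peaks did not overlap after RLE scaling. Named next were, per list and side, the strongest member, per list the called members, and the genes with most members per side. Peaks called by list were named after their values were seen. Sequences were read from GRCm38.p6 of RefSeq, whose chromosomes are those of mm10. Peaks are not replicates. With 2 libraries a group, the permutation p-values measure the spread between these samples. The limma p-values and SEs also draw on a variance shared over peaks of similar value. Without trend and robust, limma called 0 flanking peaks closing and 0 opening. Some genes of the marker list and of those with most members are not reported here.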

Additional observations from a re-analysis of the deposited data

How the results depend on the processing

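The closing and opening counts of flanking peaks (195 and 157, with 111 and 77 upstream and 84 and 80 downstream) moved with the scaling and the variance model, and the cause was not tested. As deposited they were 1540 and 26 (806 and 13 upstream, 734 and 13 downstream), at equal total over peaks 31 and 670 (16 and 306, 15 and 364), after quantile normalization 36 and 68 (19 and 33, 17 and 35), and after cyclic loess 67 closing with 39 upstream and 28 downstream, and 48 opening upstream. At an FDR under 0.05 they were 417 and 526 (224 and 254, 193 and 272). A pseudocount of 0.1 gave 95 opening (49 and 46), and 1 start per gene gave 93 (47 and 46). Distance from the peak centre gave 578 closing (172 upstream, 406 downstream). In limma's eBayes without trend and robust 0 were called. At an unadjusted limma p under 0.05 in that fit, 523 were lower and 1262 higher, beside 29293 of all 128055 peaks in either direction. Leaving out 1 library at a time gave 0 to 258 closing (0 to 135 upstream, 0 to 123 downstream) and 0 to 109 opening (0 to 56, 0 to 53). The count was 0 without either hypoxia library, where the lone library was assumed to vary like the normoxia libraries, and opening fell to 82 (40 and 42) without normoxia replicate 1 and to 53 downstream without normoxia replicate 2. The counts stayed within 1.5-fold for edgeR with RLE or TMM factors, a pseudocount of 5 and peaks of every assignment.

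No pairing by replicate number was seen. Once group means were removed, libraries sharing a number correlated at 0.01 in the whole table and at 0.03 where the mean value was 5 or more. The replicate block gave 294 closing and 268 opening flanking peaks (131 closing and 138 opening downstream, 130 opening upstream).

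The median change of -0.26 turned to 0.18 under RLE size factors, 0.45 at equal total and 0.0045 after quantile normalization, and ran from -0.30 to -0.22 with 1 library left out. Upstream minus downstream (-0.02) was 0.016 from the peak centre, 0.035 with 1 start per gene, 0.020 for peaks of every assignment, 0.034 at equal value per kb and 0 for peaks over 1 kb from any other, and ran from -0.036 to 0 with 1 library left out. Flanking minus distal peaks (-0.03) was 0.013 at a minimum mean value of 5, and 0 at equal GC content or for peaks of every assignment. Flanking minus promoter peaks (0.04) ran from -0.0093 to 0.088 with 1 library left out, and upstream minus downstream at the same start (0.02) from -0.041 to 0.089. The narrowing between flank and own promoter (0.35) kept its direction in all 18 alternatives run, from 0.08 after cyclic loess to 0.40, and the AP-1 difference (-0.09) ran from -0.13 to -0.0059, the latter at equal mean value per kb of width and too small to give a direction. The alternatives that set each peak against its own mean, took pairs within 2-fold, used the strongest quintile or left out members near noncoding starts were chosen after seeing the data. With 38.2 reads in the median flanking peak and steps of 1 read, differences of medians below about 0.04 cannot be resolved.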
